A study of Stylophora pistillata with 24 samples.

Results

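The genes described here carry the names of 5 signalling systems that pattern animal bodies, Wnt, bone morphogenetic protein (BMP), Notch, Hedgehog and fibroblast growth factor (FGF), in the reef-building coral Stylophora pistillata. They are those that hold one of a set of words in the product name in the authors' annotated gene table (Wnt, frizzled, dickkopf, bone morphogenetic protein, noggin, chordin, mothers against decapentaplegic, notch, delta-like, jagged, hedgehog, patched, fibroblast growth factor), which matched 247 of 33281 genes. Of these, 21 matched by their letters only, mostly as a "delta-like" subunit of another protein, and they were kept apart: they are no members of a pathway. The remaining 226 comprised 35 Wnt, 36 BMP, 48 Notch, 22 Hedgehog and 85 FGF genes. The names are automatic homology names, and every gene is given with the authors' identifier. The label holds for these 226 names and not for the 21.

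Messenger RNA was sequenced from whole organisms in 24 libraries, 8 groups of 3. Deep planulae (the swimming larvae) and deep adults came from the reef at 45 m, and shallow planulae and shallow adults from 5 m. Translocated juveniles were of shallow origin and grew on the reef at 45 m for 8 or 60 days, and control juveniles of the same origin grew at 5 m for the same times. All juveniles were therefore of shallow origin and were held in plastic chambers on the reef. Whether the 3 libraries of a group came from different colonies or releases of larvae is not stated in the labels. The p-values therefore reflect only how far these libraries differ, which may be technical in part.

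In animals, Wnt ligands bind Frizzled receptors and are held back by some secreted dickkopf proteins and by Frizzled-related and WIF proteins. In cnidarians Wnt genes mark the oral end of the body. The dickkopf genes here all carry the name dickkopf-3, and whether they act on Wnt signalling was not tested. BMP ligands are bound outside the cell by chordin and noggin, and inside the cell Smad proteins carry the signal. In sea anemones these genes act on the axis that crosses the oral-aboral one. Notch receptors are activated by Delta and Jagged on neighbouring cells, Hedgehog ligands are released by Dispatched and received by Patched, and FGF ligands act through receptor tyrosine kinases. In the sea anemone Nematostella, FGF genes act in the sensory organ at the front of the planula.

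Library totals ran from 13.57 to 35.78 M counts (M is 1e6), and 221 of the 226 genes had enough counts to be tested, while the other 5 never exceeded 52 counts in a library. Some libraries stood apart over all genes. Shallow planula replicate 1 lay at 177.6 on the first principal component, beside the deep planulae (171 to 179.2) and away from the other shallow planulae (222.9 and 227.4), and it was the highest library of its group for 105 of the 221 genes (47.5%, against 37.1% of all genes tested). Deep adult replicate 3 lay at −81.4, the other deep adults at −113.4 and −129.3, and it had the smallest total. Among markers of tissues, the summed level of 74 genes of motile cilia was 10710 to 16150 counts per 1e6 counts (CPM) in planulae and 2335 to 4595 CPM in the other libraries. That of 181 neuronal genes was 3632 to 4415 CPM in planulae and 1918 to 3332 CPM elsewhere, and that of 14 egg and germ-line genes was 834.6 to 1049 CPM in planulae and 1672 to 6332 CPM elsewhere. A sum follows its most abundant genes. In control 8-day juveniles against shallow planulae, 44 of 170 neuronal genes tested were higher and 48 lower (median log2 difference 0.40). Of the 14 egg and germ-line genes, 3 were higher and 2 lower (median 0.17). Their sum reached 4076 to 6332 CPM in translocated 8-day juveniles, against 2363 to 5079 CPM in deep adults. The words for stinging cells matched 1 gene, which never exceeded 2.605 CPM, so this cell type could not be checked by its markers. In whole organisms, fewer cells of a type and less RNA per cell cannot be told apart.

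Levels of different genes were compared per kilobase of the transcript length that the authors give, as the mean over all 24 libraries. A kielin/chordin-like gene (gene15279), named for vertebrate proteins that bind BMPs, was the highest at 204.7 CPM per kb. The next were a Notch-regulated ankyrin repeat gene (gene268, 131.4 CPM per kb), named for a vertebrate regulator of Notch signalling, and the Wnt receptor frizzled-5 (gene13617, 114.9 CPM per kb). BMP2-A (gene7035) stood at 108.7 CPM per kb, the secreted Wnt-binding protein sFRP5 (gene16887) at 77.6 and Smad5 (gene839), a carrier of the BMP signal in vertebrates, at 67.08 CPM per kb. The highest Wnt ligand was Wnt-1 (gene21529) at 41.37 CPM per kb. By group mean, shallow adults held the highest level of 46 of the 221 genes, deep adults of 42, deep planulae of 31, translocated 8-day juveniles of 27, control 8-day juveniles of 20, translocated 60-day juveniles of 20, shallow planulae of 19 and control 60-day juveniles of 16. Over all genes tested the shares were 18.5% for shallow adults, 15.4% for deep adults, 15.6% for deep planulae, 7.97% for translocated 8-day, 6.79% for control 8-day, 7.53% for translocated 60-day, 16.8% for shallow planulae and 11.4% for control 60-day libraries.

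Several of these genes lie side by side. By the gene order of the RefSeq assembly jaStyPist1.2, which may not be the build the authors used, 61 of the 196 genes that could be matched by gene number fell into 25 groups with at most 3 places between neighbours. They include Wnt-10a, Wnt-6 and Wnt-1 (gene12118, gene12119, gene12120), 3 genes named Wnt-2b-A (gene896, gene897, gene898), 3 dickkopf-3 genes (gene3479, gene3480, gene3481), both noggins (gene17752, gene17754), FGF8 with 2 FGF18 genes and an FGF receptor 2 (gene4740, gene4739, gene4738, gene4736) and 5 further FGF receptor genes (gene4748 to gene4752). Reads of near-identical copies, and of overlapping or antisense genes, may be shared between them, because neither the counting rule nor the use of strand is stated in the sources at hand.

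**Figure D1:**
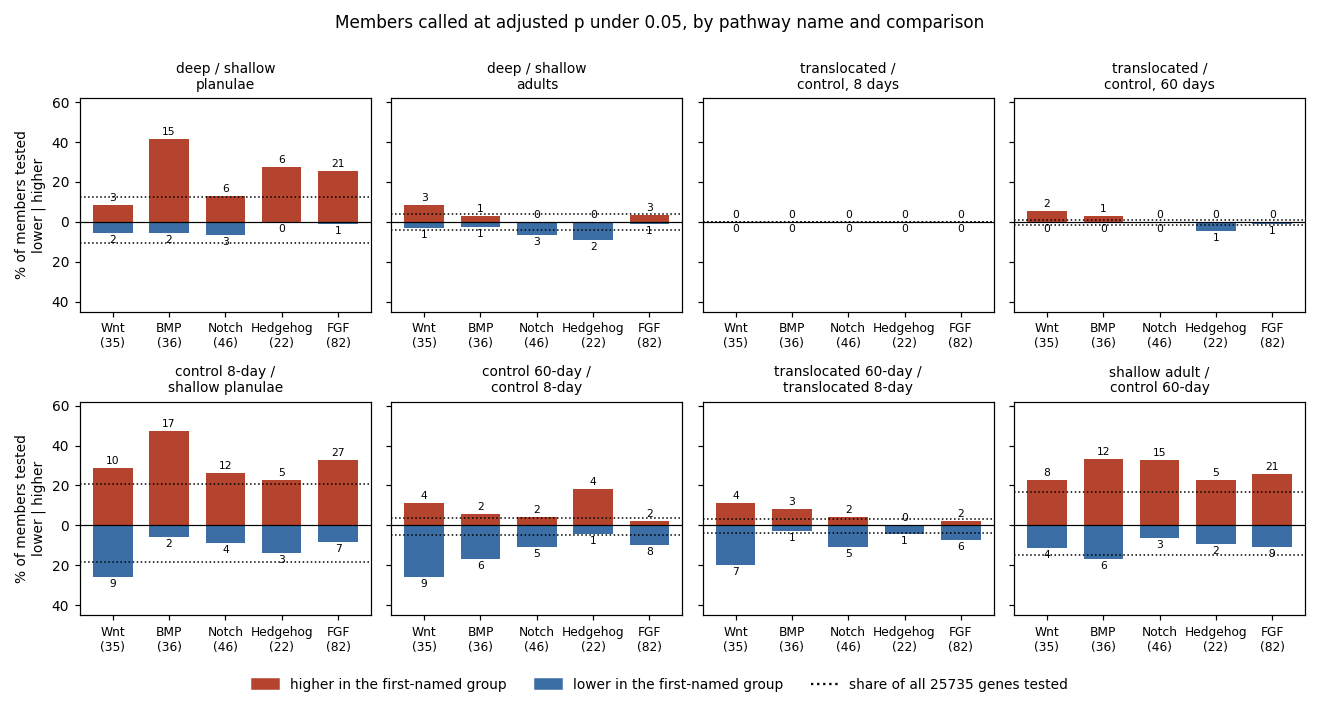
Share of tested genes called higher (upward) or lower (downward), in percent, by pathway (bars) in each of the 8 comparisons of 2 groups (panels). The dotted lines are the shares called higher and lower over all genes tested in the same comparison. Calls are at an adjusted p under 0.05. Across the 221 pathway genes together the shares range from 0% in 8-day juveniles to 43.4% between control 8-day juveniles and shallow planulae.

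Deep planulae expressed many of these genes at a higher level than shallow planulae, among them BMP and FGF ligands, both noggins, the 3 patched homologs, FGF receptor-like 1 genes and BMP1-named proteases. In deep planulae against shallow planulae, 51 of the 221 genes were higher and 8 lower (26.7%; 22.9% of all genes tested were called, 12.5% higher and 10.5% lower). The median log2 difference was 0.37 for the 221 genes and 0.09 for all genes. By pathway, 15 of 36 BMP genes rose and 2 fell, 21 of 82 FGF genes rose and 1 fell, 6 of 22 Hedgehog genes rose, 6 of 46 Notch genes rose and 3 fell, and 3 of 35 Wnt genes rose and 2 fell. Without shallow planula replicate 1, 52 genes were higher and 13 lower, while leaving out shallow planula replicate 2 or 3 left 36 and 38 calls. The 74 genes of motile cilia gave 10 higher and 2 lower, and the 170 neuronal genes tested gave 18 higher and 9 lower; their part in the result was not tested.

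Among the BMP ligands, 4 of 6 rose (median log2 difference 2.19 over the 6). BMP7 (gene23591) stood at 81.4, 55.0 and 78.6 CPM in deep planulae, against 25, 21.4 and 16.8 CPM in shallow planulae. Every deep library lay above every shallow one, by 1.76 on the log2 scale (SE 0.21, adjusted p = 1.77e-05). One of 2 genes named BMP2-A (gene5203) had 5.18, 5.39 and 17.7 CPM in deep planulae, against 1.28, 0.799 and 0.159 CPM in shallow planulae. The groups did not overlap, a condition for naming the gene by size (log2 difference 3.63, SE 0.49, adjusted p = 7.55e-05), though deep replicate 3 lay far above its group. The other BMP2-A gene (gene7035) had 20.4, 55.8 and 194 CPM in deep planulae, against 11.4, 4.73 and 5.26 CPM in shallow planulae (log2 difference 3.66, SE 0.81, adjusted p = 0.0035). Deep replicate 3 again lay far above its group, and the call was lost when only the planulae were fitted.

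Genes for proteins that bind BMPs outside the cell moved in both directions. The noggin gene17752 was at 2.82, 3.58 and 2.30 CPM in deep planulae, against 1.44, 0.200 and 0.159 CPM in shallow planulae (log2 difference 2.28, SE 0.54, adjusted p = 0.00559). Its neighbour noggin-2 (gene17754) had 1.68, 1.49 and 15.6 CPM in deep planulae, against 0.831, 0.133 and 0.558 CPM in shallow planulae. The groups did not overlap, again a condition for naming it (log2 difference 3.63, SE 0.92, adjusted p = 0.00834). Without deep replicate 3 the difference was 1.66 and was not called, and the call was also lost when only the planulae were fitted. A chordin gene (gene10579) had 26.0, 14.4 and 14.9 CPM in deep planulae, against 5.90, 6.66 and 6.13 CPM in shallow planulae (log2 difference 1.57, SE 0.31, adjusted p = 0.00141). Chordin-like 2 (gene7249) went the other way, at 2.09, 0.882 and 1.89 CPM in deep planulae, against 8.16, 8.79 and 12.9 CPM in shallow planulae (log2 difference −2.61, SE 0.62, adjusted p = 0.00574). A kielin/chordin gene (gene11681) was also lower, at 91.7, 92.6 and 84.7 CPM in deep planulae, against 149.7, 224 and 222 CPM in shallow planulae (log2 difference −1.15, SE 0.29, adjusted p = 0.0081).

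Of the genes named for BMP1, a protease that cuts chordin in other animals, 5 of 13 rose and none fell. Among them gene10509 rested on deep replicate 3, at 18.8 CPM beside 1.22 and 1.25 CPM, and lost its call without it. Shallow planulae had almost no counts of gene2231 (47 deep against 0 shallow, adjusted p = 0.0336) or gene4299 (33 against 2, adjusted p = 0.0494). The calls of gene10509 and gene9375 were lost when only the planulae were fitted. Of 5 Smads, Smad3 (gene17796), which answers to TGF-beta receptors in vertebrates, rose: it had 120.5, 149 and 123 CPM in deep planulae, against 82.3, 74.4 and 64.2 CPM in shallow planulae (log2 difference 0.83, SE 0.13, adjusted p = 0.000342). A type-1B BMP receptor (gene1734) rose by 0.79 (SE 0.20, adjusted p = 0.00826).

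**Figure D2:**
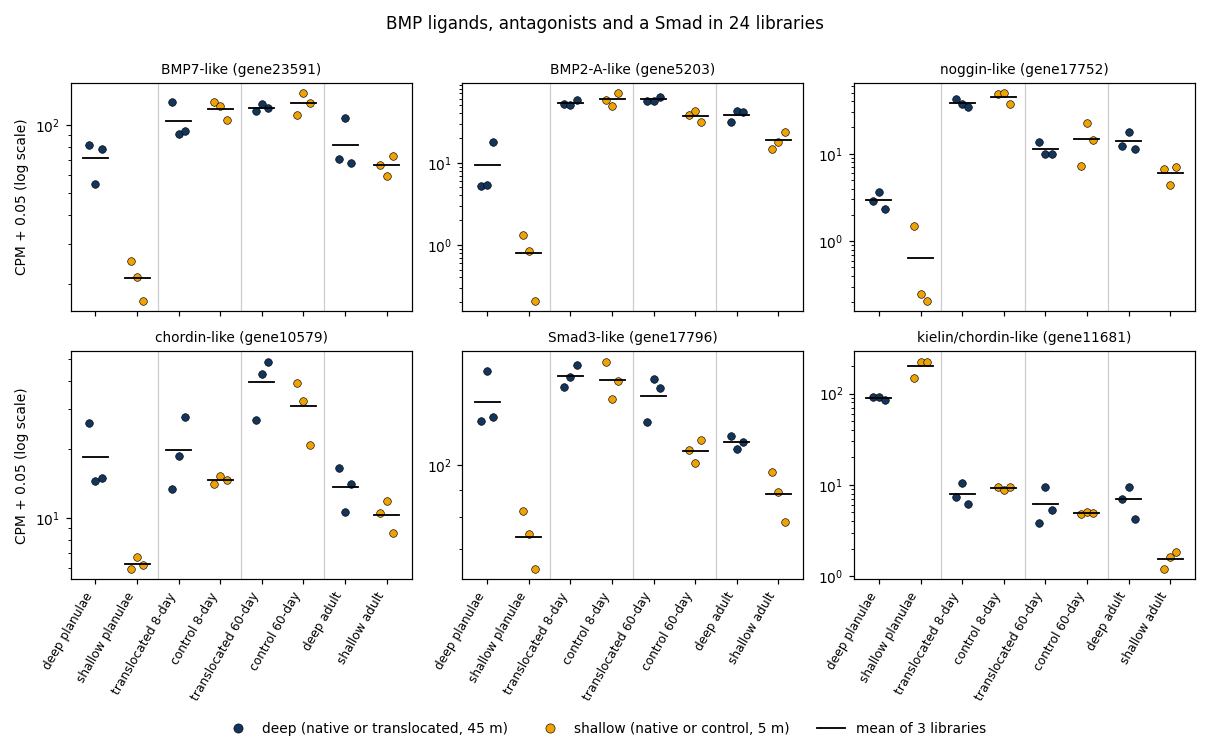
Levels of 6 BMP pathway genes in CPM plus 0.05, on a log axis, for the 24 libraries in 8 groups; dots are libraries and short lines are group means. BMP7, BMP2-A, noggin, chordin and Smad3 lie higher in deep planulae than in shallow planulae, whereas the kielin/chordin gene11681 lies lower in deep planulae and higher in deep adults than in their shallow counterparts.

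Among FGF ligands, 7 of 19 rose and none fell (median 1.70). FGF1 (gene14539) was at 1.29, 1.86 and 1.28 CPM in deep planulae and had no count in any shallow planula library. The floor of 3 counts per library puts deep planulae at least 6.66-fold higher (adjusted p = 0.000871). FGF8 (gene4740), from a different gene cluster, had 0.914, 1.11 and 0.256 CPM in deep planulae, against 0.227, 0 and 0 CPM in shallow planulae, or 53 against 3 counts, a ratio of 10.7 (95% counting interval 3.47 to 53.5, adjusted p = 0.0399). Both genes were low in every planula library.

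The FGF receptor-like 1 genes, named for a vertebrate protein that binds FGF but lacks the kinase domain, rose in 5 of 9 cases (median 1.62). The gene4749 copy had 11.5, 22.1 and 10 CPM in deep planulae, against 2.57, 0.933 and 2.15 CPM in shallow planulae. The libraries did not overlap (log2 difference 2.95, SE 0.46, adjusted p = 0.000252). Among 53 genes with a full FGF receptor name, 9 rose and 1 fell. The one that fell, an FGF receptor 2 (gene22419), had 27.9, 54.9 and 45.7 CPM in deep planulae, against 113, 314 and 213 CPM in shallow planulae (log2 difference −2.32, SE 0.41, adjusted p = 0.000739). An FGF receptor 4 (gene13685) had 1.94, 4.50 and 70.7 CPM in deep planulae, against 0.983, 0.333 and 1.11 CPM in shallow planulae (log2 difference 5.00, SE 0.95, adjusted p = 0.00119). Most of that level was in deep replicate 3, and neither DESeq2 nor the fit of the planulae alone called it.

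**Figure D3:**
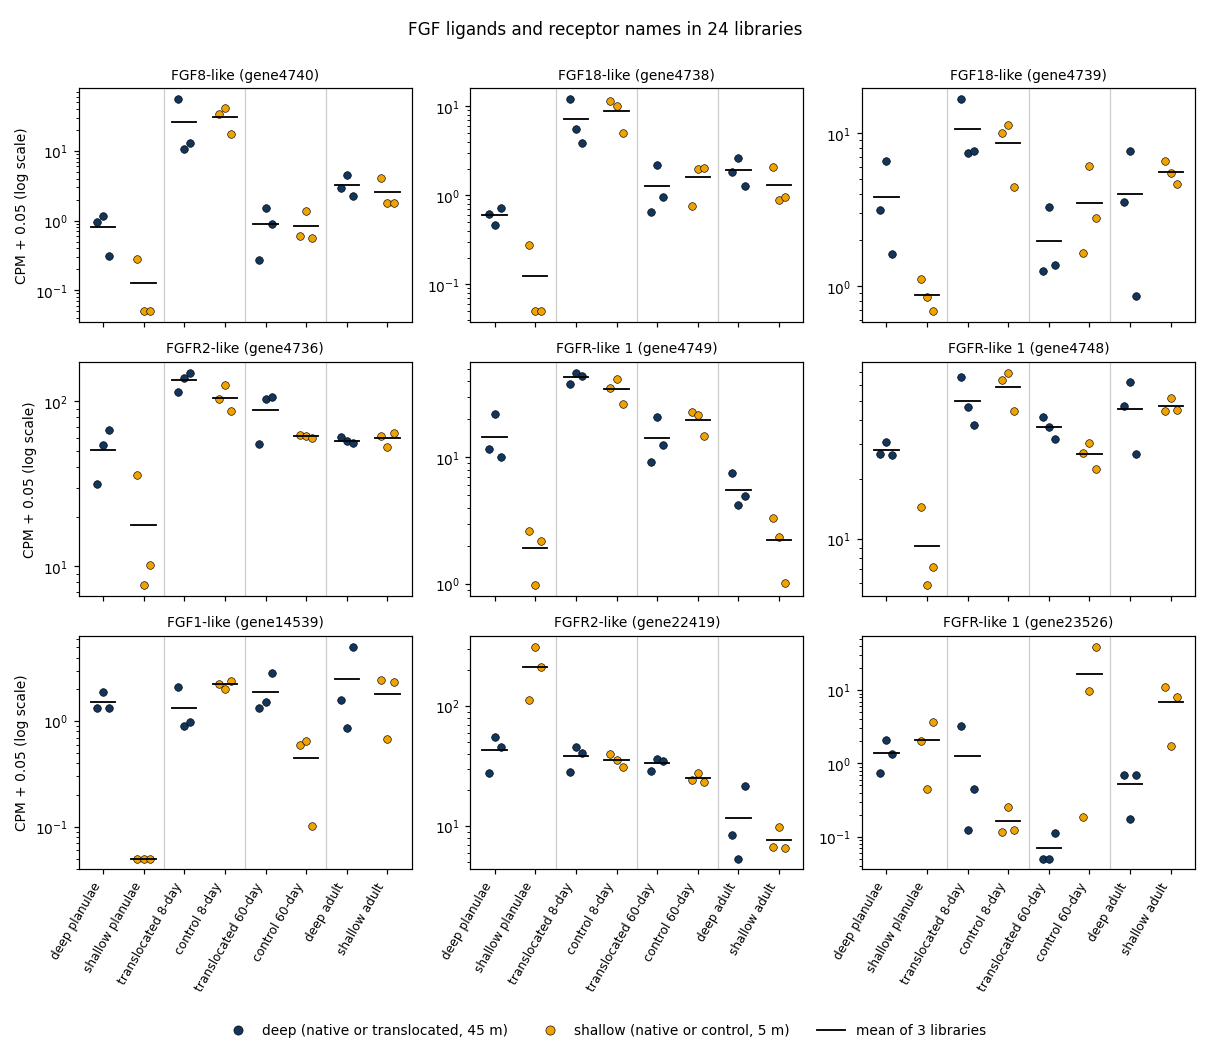
Levels of 9 FGF pathway genes in CPM plus 0.05, on a log axis, for the 24 libraries in 8 groups; dots are libraries and short lines are group means. By group mean, FGF8 and both FGF18 genes are lowest in shallow planulae, highest in 8-day juveniles and lower again at 60 days, and FGF receptor 2 gene22419 is highest in shallow planulae.

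On the Hedgehog side all 3 patched homologs rose (median 1.33) and none of the 8 patched domain-containing 3 genes was called by edgeR (1 at an unadjusted p under 0.05). Also higher were Indian hedgehog and 2 of 6 Dispatched genes. The ligand gene (gene17672) had 13.8, 14.3 and 5.78 CPM in deep planulae, against 5.21, 0.333 and 1.27 CPM in shallow planulae. Shallow replicate 1 came close to the lowest deep library (log2 difference 2.32, SE 0.68, adjusted p = 0.0194; 3.83 without that library), and the call was lost without shallow replicate 2 or 3, without deep replicate 1 or 2, and when only the planulae were fitted. Patched-1 (gene21826) was steadier, at 24.7, 27.6 and 38.3 CPM in deep planulae, against 16.2, 12.2 and 11.9 CPM in shallow planulae (log2 difference 1.17, SE 0.25, adjusted p = 0.00293). Dispatched-3 (gene8707) had 179, 139 and 248 CPM in deep planulae, against 85.0, 75.7 and 79.0 CPM in shallow planulae (log2 difference 1.24, SE 0.20, adjusted p = 0.000406).

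Notch genes split. Jagged-1 (gene11790), a ligand, had 60.4, 57.6 and 80.9 CPM in deep planulae, against 30.8, 37.9 and 46.7 CPM in shallow planulae (log2 difference 0.79, SE 0.22, adjusted p = 0.0144), and delta-like D (gene2539), another ligand, was lower at 2.02, 3.21 and 1.07 CPM in deep planulae, against 7.41, 9.06 and 9.64 CPM in shallow planulae (log2 difference −2.05, SE 0.46, adjusted p = 0.00406). Among genes with a Notch receptor name, 4 of 29 rose and 2 fell. The largest fall was in gene27374, at 0.228, 0.371 and 0.768 CPM in deep planulae, against 11, 22.5 and 27.6 CPM in shallow planulae. No deep library came within a factor of 10 of a shallow one in level (log2 difference −5.49, SE 0.99, adjusted p = 0.000815).

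Wnt genes moved least by count. Of 19 ligands 3 rose, among them Wnt-5a (gene4411), which had 6.55, 6.92 and 5.58 CPM in deep planulae, against 3.85, 0.600 and 0.398 CPM in shallow planulae (log2 difference 1.98, SE 0.52, adjusted p = 0.0109). Shallow replicate 1 was again the highest of its group, below all deep libraries. The dickkopf-3 gene3481 was lower, at 0.990, 2.18 and 1.33 CPM in deep planulae, against 4.01, 8.86 and 7.57 CPM in shallow planulae (log2 difference −2.18, SE 0.56, adjusted p = 0.00926).

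Other genes of the pathways, from lists of downstream and partner proteins, gave 20 higher and 2 lower of 56 for TGF-beta and BMP (median 0.82), 8 and 2 of 29 for Wnt, 8 and 2 of 32 for Notch, 3 and 0 of 8 for Hedgehog and 3 and 5 of 27 for FGF with Ras-MAPK. The BMP-binding regulator BMPER (gene13212) averaged 74.3 ± 9.02 CPM in deep planulae and 11 ± 6.21 CPM in shallow planulae (SD, n = 3 each; log2 difference 2.76, SE 0.33, adjusted p = 2.34e-05). The Wnt co-receptor LRP6 (gene2763) averaged 19.0 ± 4.14 CPM in deep planulae and 3.53 ± 2.69 CPM in shallow planulae (log2 difference 2.43, SE 0.33, adjusted p = 8.3e-05). In the Hedgehog list the shallow libraries scattered widely: the effector GLI3 (gene14714) averaged 19.8 ± 2.73 CPM in deep planulae and 5.09 ± 6.07 CPM in shallow planulae (log2 difference 1.96, SE 0.54, adjusted p = 0.0141).

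Between adults of both depths few of these genes differed. In deep adults against shallow adults 7 of 221 were higher and 8 lower (6.79%; 8.02% of all genes tested were called, 3.72% higher and 4.29% lower), with a median of 0.08 beside 0 for all genes. In the authors' deposited table, which covers 216 of these genes, 12 were called higher and 9 lower in deep adults, and 14 of the 15 genes called here were called there with the same sign. The count depended on single libraries: without deep adult replicate 3 it was 11 (7 higher, 4 lower), without deep adult replicate 2 it was 24 (10 higher, 14 lower), and without shallow adult replicate 1 or 2 it was 10 and 8. When the fit held the adult libraries alone, 2 genes were called, and DESeq2 called 30, of which 20 were higher and 10 lower.

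The kielin/chordin gene11681, lower in deep planulae, was higher in deep adults: 6.96, 9.48 and 4.23 CPM in deep adults, against 1.15, 1.57 and 1.77 CPM in shallow adults (log2 difference 2.21, SE 0.31, adjusted p = 0.000198). FGF13 (gene20215), whose mammalian namesake stays inside the cell, had 6.80, 7.13 and 14.1 CPM in deep adults, against 1.23, 1.91 and 2.12 CPM in shallow adults (log2 difference 2.40, SE 0.42, adjusted p = 0.00138). The receptor genes parted: gene24332 had 73.6, 64.1 and 46.6 CPM in deep adults, against 17.1, 12.2 and 17.9 CPM in shallow adults (log2 difference 1.97, SE 0.43, adjusted p = 0.00821), while gene18948 had 18.6, 4.95 and 7.88 CPM in deep adults, against 42.5, 62.8 and 52.5 CPM in shallow adults (log2 difference −2.33, SE 0.41, adjusted p = 0.00133). The depths did not overlap in these 4 genes, which was a condition for naming them by size.

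Among Wnt genes, Wnt-16 (gene780) had 1.03, 2.47 and 1.71 CPM in deep adults, against 18.1, 6.39 and 55.0 CPM in shallow adults (log2 difference −3.92, SE 0.73, adjusted p = 0.0041). A dickkopf-3 gene (gene12222) had 4.57, 2.47 and 0.813 CPM in deep adults, against 0, 0.0570 and 0 CPM in shallow adults, or 155 against 2 counts, a ratio of 139 (95% counting interval 37.9 to 1160, adjusted p = 0.0164). The groups did not overlap in either gene, again a condition for naming them, and the shallow adult libraries spread widely in Wnt-16. The Notch-3 name gene19573 had no count in any deep adult library, against 11.9, 5.25 and 0.660 CPM in shallow adults, at least 33.8-fold lower in deep adults (adjusted p = 0.00218). Delta-like D (gene2539) was lower here too, at 2.45, 0.892 and 1.06 CPM in deep adults, against 8.49, 9.13 and 5.60 CPM in shallow adults (log2 difference −2.40, SE 0.47, adjusted p = 0.00365). Dispatched-3 (gene8707) had 138, 166 and 134 CPM in deep adults, against 219, 292 and 192 CPM in shallow adults (log2 difference −0.68, SE 0.20, adjusted p = 0.0429), a call that 5 of the alternatives removed.

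Depth effects in planulae and adults were then compared directly, as the difference of both differences. In adults relative to planulae, 6 genes were higher and 25 lower (14.0%; 13.1% of all genes tested were called, 6.41% higher and 6.66% lower), with a median of −0.44 beside −0.14 for all genes. There were 4 genes that passed both single comparisons, 6.78% of those called in planulae and 26.7% of those called in adults, 2 of them with the same sign: delta-like D (gene2539), lower at depth in both, and FGF1 (gene19231), higher at depth in both. Over all genes 599 passed both, 10.2% of the planula calls and 29.0% of the adult calls, and 502 of these had the same sign. For the kielin/chordin gene11681 the difference of differences was 3.36 (SE 0.43, adjusted p = 0.000147), and for dispatched-3 (gene8707) it was −1.92 (SE 0.29, adjusted p = 0.000583). BMP7 (gene23591), raised in deep planulae, averaged 81.9 ± 21.9 CPM in deep adults and 66.3 ± 6.47 CPM in shallow adults (SD, n = 3 each; log2 difference 0.31, adjusted p = 0.374), and its difference of differences was −1.46 (SE 0.28, adjusted p = 0.00346). Without shallow planula replicate 1 the count was 42 (6 higher, 36 lower), without shallow planula replicate 3 it was 19, and without deep adult replicate 3 it was 23.

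Juveniles that had spent 8 days at depth did not differ detectably from controls in these genes. In translocated 8-day against control 8-day juveniles 0 of 221 genes were called by edgeR (0.00389% of all genes tested, 1 gene), 14 had an unadjusted p under 0.05, and DESeq2 called 0. The median was 0.11 beside −0.03 for all genes. The Notch-regulated gene268, named for the smallest p of its role, had 113, 421 and 374 CPM in translocated 8-day juveniles, against 52.6, 76.5 and 56.6 CPM in control 8-day juveniles. These libraries did not overlap, but the gene was not called.

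At 60 days 3 genes were higher and 2 lower in translocated than in control juveniles (2.26%; 2.39% of all genes tested were called, 1.09% higher and 1.31% lower; median 0.23 beside −0.01). Both Wnt calls were rises. Wnt-2b-A gene897 had 30.7, 38.7 and 68.5 CPM in translocated 60-day juveniles, against 8.44, 7.43 and 8.26 CPM in control 60-day juveniles. All translocated libraries lay far above the tight controls (log2 difference 2.51, SE 0.34, adjusted p = 0.00041). Wnt-7b (gene17264) was at 0.719, 1.64 and 0.848 CPM in translocated 60-day juveniles, against 0.0339, 0.0941 and 0 CPM in control 60-day juveniles (log2 difference 4.36, SE 0.90, adjusted p = 0.0144). Its level was very low in the controls. The call was lost in 3 alternatives: without control replicate 1, without control replicate 3, and with the compared groups alone.

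BMP5 (gene1349), a BMP ligand, had 6.81, 8.98 and 8.66 CPM in translocated 60-day juveniles, against 3.42, 1.91 and 4.10 CPM in control 60-day juveniles (log2 difference 1.38, SE 0.34, adjusted p = 0.0355), a call lost in 6 alternatives, among them leaving out any 1 control library. Lower were an FGF receptor-like 1 gene (gene23526), with 1 count in all in translocated 60-day juveniles, against 0.136, 9.69 and 39.4 CPM in control 60-day juveniles, and a patched domain-containing gene (gene21694). The ratio for gene23526 in control over translocated juveniles was 686 (95% counting interval 123 to 27100, adjusted p = 0.0174), and control replicate 1 was nearly as low as the translocated libraries. This call was lost in 5 alternatives, among them leaving out control replicate 3 or any 1 translocated library. The gene21694 levels were 181, 122 and 159 CPM in translocated 60-day juveniles, against 461, 301 and 221 CPM in control 60-day juveniles (log2 difference −1.09, SE 0.28, adjusted p = 0.0418). The same gene was lower in deep adults than in shallow adults (log2 difference −0.96, SE 0.28, adjusted p = 0.0376). Neither call was stable: the 60-day one was lost in 7 alternatives, RLE scaling and the removal of any 1 translocated library included, and the adult one in 5.

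The 60-day count fell to 2 without control replicate 3 or without translocated replicate 2, and to 3 without control replicate 1. It was 7 without translocated replicate 1, 19 with DESeq2 and 1 when only the 60-day libraries were fitted, where gene897 had an adjusted p of 0.0511. Of the other pathway genes 1 rose in the Wnt list and 1 in the list of FGF with Ras-MAPK. Vang-like 2 (gene13239), of the planar cell polarity branch of Wnt signalling, averaged 72.5 ± 22.7 CPM in translocated 60-day and 31.1 ± 0.708 CPM in control 60-day juveniles (SD, n = 3 each, log2 difference 1.22, SE 0.17, adjusted p = 0.000669). ETV5 (gene3588), a transcription factor induced by FGF in vertebrates, averaged 224 ± 55.0 CPM in translocated 60-day and 103 ± 10.5 CPM in control 60-day juveniles (log2 difference 1.12, SE 0.26, adjusted p = 0.0262). Neurons gave 4 higher and 0 lower of 170. The change in the translocation effect between 8 and 60 days passed the edgeR test in 0 genes (0.0622% of all genes tested, 0.0311% higher and 0.0311% lower), with 25 at an unadjusted p under 0.05 and 3 called by DESeq2.

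**Figure D4:**
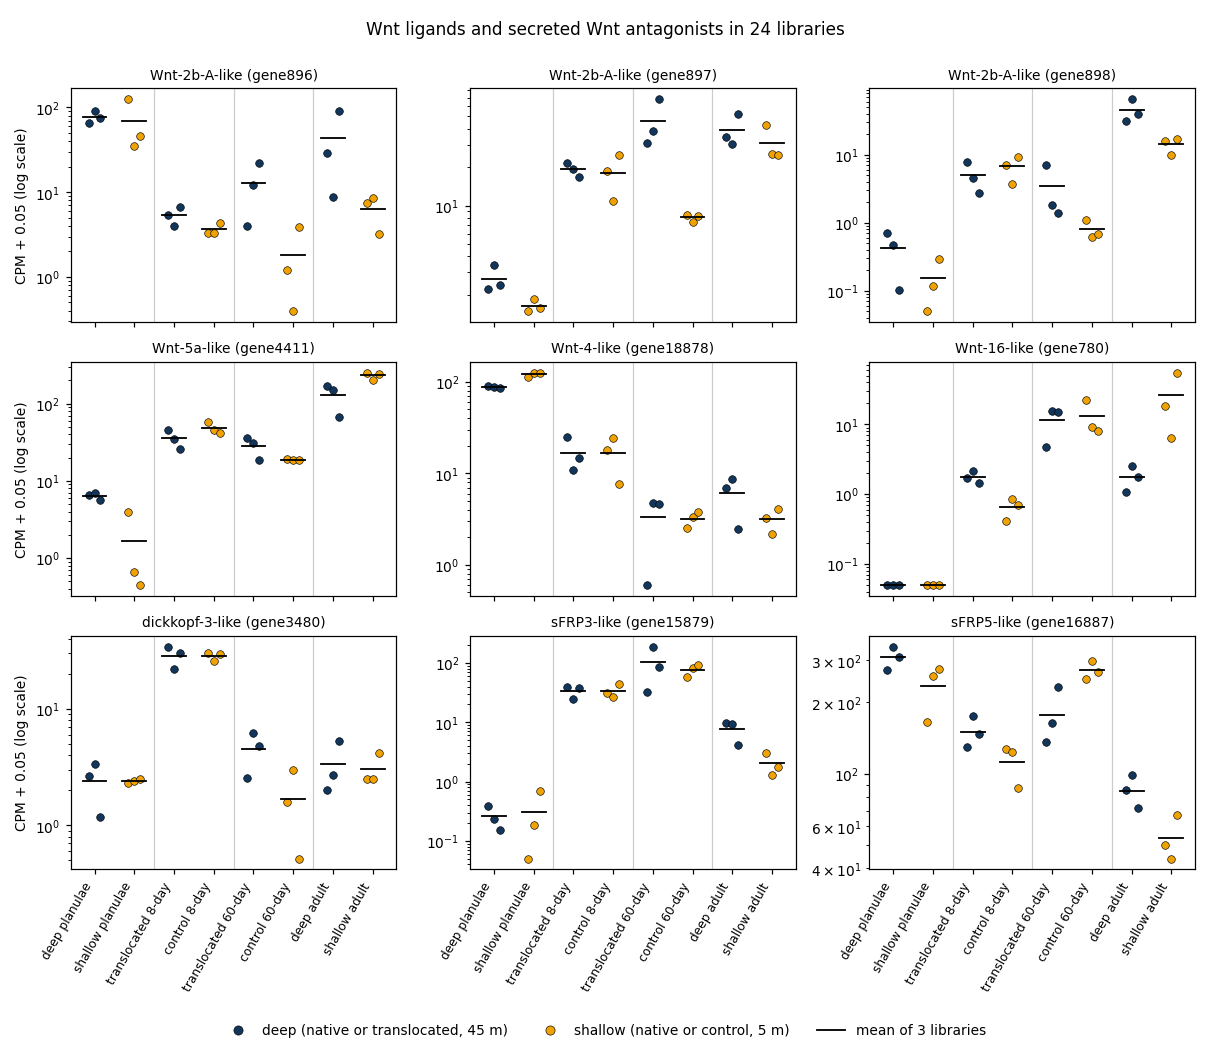
Levels of 9 Wnt pathway genes in CPM plus 0.05, on a log axis, for the 24 libraries in 8 groups; dots are libraries and short lines are group means. The neighbouring Wnt-2b-A genes run in opposite directions, with gene896 high in planulae and gene897 and gene898 low there, and gene897 is higher in translocated than in control 60-day juveniles.

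Between the planula and the settled polyp BMP ligands, noggins, the 3 patched homologs and FGF receptor-like 1 genes were mostly higher in the polyp, and Wnt ligands were split. Of the 8 genes named patched domain-containing 3, 2 were lower and none higher. In control 8-day juveniles against shallow planulae 71 genes were higher and 25 lower (43.4%; 39.0% of all genes tested were called, 20.9% higher and 18.1% lower). The median was 0.71, or 0.58 with genes that had no count in a group set to their bound, beside 0.16 for all genes. This comparison and that of planulae by depth share the shallow planula libraries, so genes low in those libraries are high in both. The summed level of motile cilia genes differs strongly here (61 of 74 lower in juveniles, 2 higher), and its part in these results was not tested.

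BMP ligands rose in 5 of 6 cases and both noggins rose. BMP2-A gene5203 had 58.0, 49.2 and 70.5 CPM in control 8-day juveniles, against 1.28, 0.799 and 0.159 CPM in shallow planulae (log2 difference 6.29, SE 0.53, adjusted p = 3.28e-08). Noggin gene17752 had 48.6, 49.1 and 36.5 CPM in control 8-day juveniles, against 1.44, 0.200 and 0.159 CPM in shallow planulae (log2 difference 6.22, SE 0.59, adjusted p = 1.36e-07). Ligand and antagonist were thus both raised, and the deep planulae lay between these groups for both genes. Of 6 kielin/chordin genes 2 rose and 2 fell. Those that rose were low in the polyp, gene26638 at a mean of 4.03 ± 2.88 CPM in control 8-day juveniles and 0.127 ± 0.157 CPM in shallow planulae (SD, n = 3 each; log2 difference 4.96, SE 0.99, adjusted p = 0.000531), and gene27143 with 86 against 3 counts (adjusted p = 0.00874). Those that fell were high in planulae: gene11681 had 9.41, 8.75 and 9.39 CPM in control 8-day juveniles, against 149.7, 224 and 222 CPM in shallow planulae (log2 difference −4.43, SE 0.33, adjusted p = 8.55e-09), and gene17308 had 3.50, 2.35 and 3.50 CPM in control 8-day juveniles, against 53.1, 57.8 and 94.6 CPM in shallow planulae (log2 difference −4.45, SE 0.57, adjusted p = 4.29e-06).

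In the FGF gene cluster, FGF8 and both FGF18 genes rose together at settlement. FGF8 (gene4740) had 34.4, 41.1 and 17.3 CPM in control 8-day juveniles, against 0.227, 0 and 0 CPM in shallow planulae, or 2975 against 3 counts, a ratio of 402 (95% counting interval 137 to 1950, adjusted p = 4.46e-06). For FGF18 gene4738 the ratio was 116 (interval 39.4 to 561, adjusted p = 9.31e-06), and FGF18 gene4739 had 9.96, 11.3 and 4.41 CPM in control 8-day juveniles, against 1.06, 0.799 and 0.637 CPM in shallow planulae (log2 difference 3.36, SE 0.74, adjusted p = 0.00124). Of all 19 FGF ligands, 8 rose and 2 fell, with FGF1 gene14541 among the falls. Of the 9 FGF receptor-like 1 genes, 7 rose and 1 fell. Among 53 genes with a full FGF receptor name, 12 rose and 4 fell, with FGF receptor 3 gene15477 among the falls.

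Wnt ligands divided, with 6 of 19 higher and 4 lower. Wnt-2b-A gene896 had 3.21, 3.25 and 4.28 CPM in control 8-day juveniles, against 126, 35.4 and 46.2 CPM in shallow planulae (log2 difference −4.27, SE 0.85, adjusted p = 0.000537), whereas its neighbour gene897 had 18.6, 10.7 and 25 CPM in control 8-day juveniles, against 1.44, 1.80 and 1.51 CPM in shallow planulae (log2 difference 3.51, SE 0.37, adjusted p = 4.04e-07). Wnt-4 (gene18878) fell, with 17.9, 24.3 and 7.61 CPM in control 8-day juveniles, against 112, 125 and 126 CPM in shallow planulae (log2 difference −2.87, SE 0.56, adjusted p = 0.000414). Wnt-16 (gene780) had no count in any planula library of either depth and 61 counts over the control 8-day libraries, at least 2.72-fold higher (adjusted p = 0.00379). The antagonist sFRP3 (gene15879) rose to 31.6, 26.6 and 44.5 CPM in control 8-day juveniles, against 0, 0.133 and 0.637 CPM in shallow planulae (log2 difference 7.08, SE 0.79, adjusted p = 9.47e-07). Among other pathway genes 10 of 29 for Wnt rose and 3 fell. The counts were 18 and 2 of 56 for TGF-beta and BMP and 6 and 9 of 32 for Notch. They were 4 and 1 of 8 for Hedgehog, and 6 and 7 of 27 for FGF with Ras-MAPK.

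Between 8 and 60 days of juvenile life more of these genes fell than rose, among them dickkopf-3 and FGF ligand genes. The control comparison shares its 8-day libraries with the settlement comparison, in which a gene high at 8 days is counted as higher. In control 60-day against control 8-day juveniles 14 genes were higher and 29 lower (19.5%; 8.56% of all genes tested were called, 3.87% higher and 4.68% lower; median −0.35 beside 0.02). In translocated 60-day against translocated 8-day juveniles 11 were higher and 20 lower (14.0%; 7.38% of all genes tested, 3.4% higher and 3.99% lower; median −0.11 beside −0.01). These comparisons share no library. They had 21 genes in common, 48.8% of the control calls and 67.7% of the translocated calls, where all genes gave 45.5% and 52.7%, and 20 of the 21 had the same sign. The control count was 28 without control 60-day replicate 3 or control 8-day replicate 1, and the translocated count was 20 or 16 without translocated 60-day replicate 1 or 3 and 17 without translocated 8-day replicate 2 or 3.

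FGF8 (gene4740) was at 0.542, 1.32 and 0.519 CPM in control 60-day juveniles, against 34.4, 41.1 and 17.3 CPM in control 8-day juveniles (log2 difference −5.26, SE 0.84, adjusted p = 0.000472). In the translocated line it was at 0.221, 1.47 and 0.848 CPM at 60 days, against 55.8, 10.6 and 12.9 CPM at 8 days (log2 difference −4.96, SE 0.84, adjusted p = 0.00149). The groups did not overlap in either line, which was a condition for naming the gene by size. Of 19 FGF ligands 6 fell in the control line and 4 in the translocated line, and none rose. Sprouty-2 (gene4737), an inhibitor of FGF signalling from the list of other pathway genes, averaged 40.0 ± 6.01 CPM in control 60-day and 92.1 ± 1.36 CPM in control 8-day juveniles (SD, n = 3 each; log2 difference −1.20, SE 0.27, adjusted p = 0.00852).

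All 3 neighbouring dickkopf-3 genes fell, with 4 of 6 dickkopf genes lower and 1 higher in each line. The gene3480 copy had 1.52, 2.92 and 0.467 CPM in control 60-day juveniles, against 30.2, 25.9 and 29.8 CPM in control 8-day juveniles (log2 difference −4.11, SE 0.55, adjusted p = 8.43e-05). In the translocated line it had 2.49, 6.11 and 4.72 CPM at 60 days, against 34.3, 21.8 and 29.9 CPM at 8 days (log2 difference −2.69, SE 0.51, adjusted p = 0.00332). Both Wnt-4 (gene18878) changes were falls as well, by 2.39 in the control line and by 2.37 in the translocated line on the log2 scale (SE 0.56 each; adjusted p = 0.0103 and 0.014). Wnt-16 (gene780) rose, to 22.1, 9.25 and 8.00 CPM in control 60-day juveniles, against 0.357, 0.804 and 0.651 CPM in control 8-day juveniles (log2 difference 4.43, SE 0.76, adjusted p = 0.00164).

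Wnt-2b-A gene897 was the one gene of opposite sign. It fell to 8.44, 7.43 and 8.26 CPM in control 60-day juveniles, against 18.6, 10.7 and 25 CPM in control 8-day juveniles (log2 difference −1.17, SE 0.32, adjusted p = 0.0274). In the translocated line it rose to 30.7, 38.7 and 68.5 CPM at 60 days, against 21.7, 19.3 and 16.8 CPM at 8 days (log2 difference 1.26, SE 0.32, adjusted p = 0.0209). That call was lost without translocated 60-day replicate 3, without translocated 8-day replicate 2 or 3, and when only the translocated libraries were fitted. The difference between the 60-day and 8-day translocation effects, which tests this contrast, had an adjusted p of 0.0508 and was not called.

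Genes with a Notch receptor name changed in both directions in both lines. The Notch-1 name gene22598 had 6.81, 10.2 and 2.39 CPM in control 60-day juveniles, against 88.7, 102 and 87.6 CPM in control 8-day juveniles (log2 difference −3.84, SE 0.39, adjusted p = 9.18e-06), and 13.1, 20.6 and 14.8 CPM in translocated 60-day juveniles, against 108, 76.1 and 101 CPM in translocated 8-day juveniles (log2 difference −2.55, SE 0.37, adjusted p = 0.00048). Its neighbour gene22597 fell in both lines too. The Notch-3 name gene828 rose, to 78.1, 113 and 77.2 CPM in control 60-day juveniles, against 18.4, 14.3 and 14.4 CPM in control 8-day juveniles (log2 difference 2.51, SE 0.32, adjusted p = 5.34e-05), and to 66.5, 109 and 64.6 CPM in translocated 60-day juveniles, against 19.3, 15.6 and 15.3 CPM in translocated 8-day juveniles (log2 difference 2.26, SE 0.32, adjusted p = 0.000391). Patched-1 (gene21826) rose in the control line, to 94.4, 106 and 92.5 CPM at 60 days, against 28.0, 36.6 and 39.8 CPM at 8 days (log2 difference 1.49, SE 0.25, adjusted p = 0.000702). In the translocated line the difference was 0.60 (SE 0.25, adjusted p = 0.157).

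**Figure D5:**
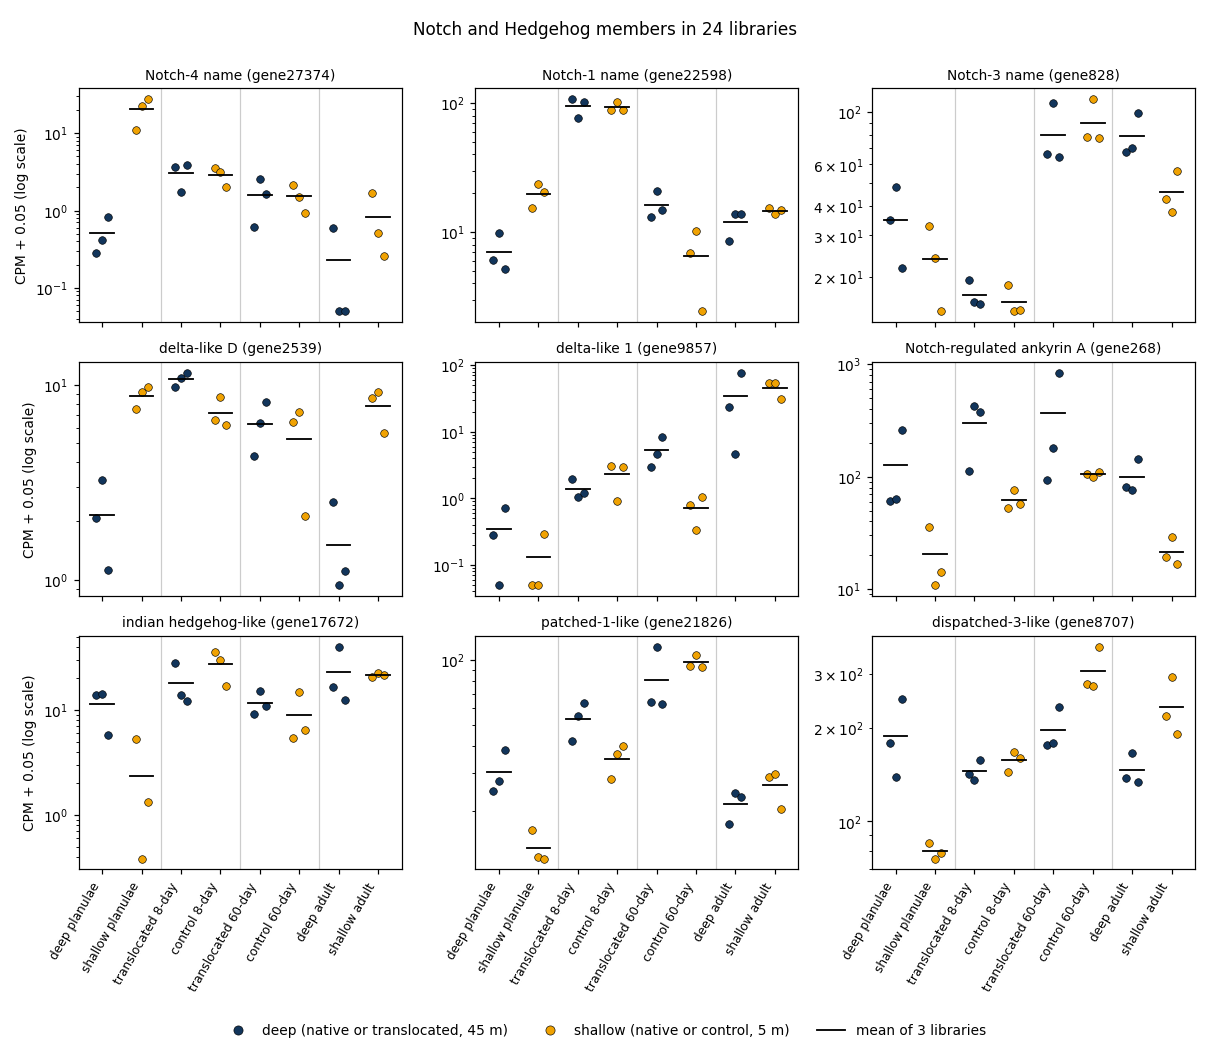
Levels of 6 Notch and 3 Hedgehog pathway genes in CPM plus 0.05, on a log axis, for the 24 libraries in 8 groups; dots are libraries and short lines are group means. The Notch-named gene22598 falls and gene828 rises between 8 and 60 days in both lines, and delta-like D (gene2539) lies lower in deep than in shallow libraries of planulae and of adults.

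Adults again differed from juveniles by higher levels of more genes. In shallow adults against control 60-day juveniles 61 genes were higher and 24 lower (38.5%; 31.3% of all genes tested were called, 16.6% higher and 14.7% lower; median 0.47, or 0.44 at the bounds, beside 0.03). Of 170 neuronal genes tested, 31 were higher and 20 lower, and the part of tissue makeup in these results was not tested. Smad6 (gene17797), an inhibitory Smad in vertebrates, had 158, 120.2 and 164 CPM in shallow adults, against 31.9, 21.1 and 9.81 CPM in control 60-day juveniles (log2 difference 2.81, SE 0.46, adjusted p = 0.00021). BMP6 (gene1358) had 349, 359.8 and 197 CPM in shallow adults, against 127, 75.6 and 73.7 CPM in control 60-day juveniles (log2 difference 1.71, SE 0.31, adjusted p = 0.00045). BMP2-A gene7035 went the other way, at 0.701, 0 and 0.591 CPM in shallow adults, against 64.7, 36.1 and 104 CPM in control 60-day juveniles (log2 difference −7.30, SE 0.98, adjusted p = 3.25e-05). Over the 6 BMP ligands, 3 were higher and 2 lower in shallow adults, and both noggins were lower. This comparison shares the control 60-day libraries with the growth and translocation comparisons.

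Of 19 Wnt ligands 6 were higher in shallow adults and none lower. Wnt-5a (gene4411) had 250.3, 203 and 241 CPM in shallow adults, against 18.9, 18.7 and 18.7 CPM in control 60-day juveniles (log2 difference 3.62, SE 0.51, adjusted p = 5.05e-05). Of the 4 secreted Wnt-binding genes 2 rose and 2 fell. A second sFRP3 gene (gene16185) had 1.06, 1.14 and 4.59 CPM in shallow adults, against 0.102, 0.0627 and 0 CPM in control 60-day juveniles (log2 difference 5.14, SE 1.16, adjusted p = 0.00287), and the Wnt inhibitory factor gene9648 rose on 14 counts against 0 (adjusted p = 0.03). Both were low in every library. The genes that fell were higher in level: sFRP5 (gene16887) had 50.1, 43.8 and 66.9 CPM in shallow adults, against 249.7, 299.5 and 267 CPM in control 60-day juveniles (log2 difference −2.34, SE 0.24, adjusted p = 2.16e-06), and sFRP3 (gene15879) had 2.97, 1.25 and 1.70 CPM in shallow adults, against 59.0, 80.9 and 91.6 CPM in control 60-day juveniles (log2 difference −5.28, SE 0.65, adjusted p = 1.32e-05). Frizzled-5 (gene13617) was lower, at 194, 284 and 191 CPM in shallow adults, against 398, 356 and 292 CPM in control 60-day juveniles (log2 difference −0.64, SE 0.24, adjusted p = 0.0486).

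The Notch ligand delta-like 1 (gene9857) had 53.3, 53.6 and 30.4 CPM in shallow adults, against 0.746, 0.282 and 0.987 CPM in control 60-day juveniles (log2 difference 6.11, SE 1.02, adjusted p = 0.000247). Of 29 genes with a Notch receptor name 12 were higher and 2 lower. Patched-1 (gene21826) fell to 28.6, 29.7 and 20.3 CPM in shallow adults, against 94.4, 106 and 92.5 CPM in control 60-day juveniles (log2 difference −1.90, SE 0.25, adjusted p = 2.92e-05). Among FGF receptor names 16 of 53 were higher and 5 lower. The FGF receptor 1-A gene15668 had 3.53, 3.28 and 2.92 CPM in shallow adults, against 36.3, 41.8 and 29.6 CPM in control 60-day juveniles (log2 difference −3.47, SE 0.35, adjusted p = 1.45e-06). Other pathway genes gave 7 higher and 4 lower of 29 for Wnt, and 15 and 10 of 56 for TGF-beta and BMP. They gave 5 and 5 of 32 for Notch, 1 and 1 of 8 for Hedgehog and 7 and 3 of 27 for FGF with Ras-MAPK.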

How the data were processed

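Polyadenylated RNA of whole corals was sequenced in 24 libraries with unique molecular identifiers added before amplification, per the labels' protocols. The deposited tables hold the authors' raw counts per gene; the submitters' processing notes name FastQC, MultiQC, cutadapt, Trimmomatic and DESeq2, while the aligner, counting tool, build and strand setting are not stated there or in the labels. An annotated table of the authors gives product names, transcript lengths in bases, and their log2 fold changes with adjusted p-values for adults.

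From the counts, 25735 genes passed edgeR's filter for expression over the 8 groups. One robust quasi-likelihood fit to all 24 libraries (R 4.3.3, edgeR 4.0.16, limma 3.58.1, TMM scaling) gave each comparison, with 16 residual degrees of freedom and Benjamini-Hochberg adjustment over all genes tested; calls are at an adjusted p under 0.05. CPM use TMM-scaled library sizes, and a standard error is the absolute log2 difference over the root of F. Groups without a count were set to a floor of 3 counts per library; intervals on count ratios and these floors cover counting error only. The fit was tested on simulated data. DESeq2 1.42.0, RLE factors, no filter, the compared groups alone, a replicate block and leaving out each library were alternatives.

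The genes, lists and tests were chosen with earlier results of these data known. Named genes are, per comparison, called genes with non-overlapping libraries and at least 1 CPM in the higher group, the 8 largest rises and 8 largest falls, and the smallest p of each role; the 3 smallest p among called genes of each other list; and, for levels, the highest gene of each role. A selection of these is printed. For genes named by size, libraries without overlap were a condition of the choice and add no evidence. Some neighbours and genes of the same role (such as gene4736, gene4738, gene4740, gene17752 and gene896) were added after their values were seen. Replicate numbers did not pair the libraries: the correlations of same-numbered libraries ran from −0.157 to 0.257.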

Additional observations from a re-analysis of the deposited data

Results flagged for a closer look

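In 31 genes the depth difference of adults (deep minus shallow) differed from that of planulae by the test of the difference itself (edgeR, adjusted over all genes tested). This was 14.0% of the 221 genes, close to the 13.1% of all genes tested. Of the 31 genes, 20 are named here. Values are the adult difference minus the planula difference on the log2 scale. Positive values were found for the kielin/chordin gene11681 (3.36, SE 0.43, adjusted p = 0.000147), FGF receptor 2 gene22419 (2.91, SE 0.57, adjusted p = 0.00379), dickkopf-3 gene3481 (3.0, SE 0.79, adjusted p = 0.0186), FGF receptor-like gene24332 (2.05, SE 0.59, adjusted p = 0.0296), FGF13 gene20215 (2.04, SE 0.65, adjusted p = 0.0446) and the Notch-regulated ankyrin gene19123 (1.33, SE 0.37, adjusted p = 0.0257).

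Negative values were found for dispatched-3 gene8707 (−1.92, adjusted p = 0.000583), BMP7 gene23591 (−1.46, adjusted p = 0.00346), FGF receptor 4 gene13685 (−5.84, adjusted p = 0.00521) and Notch gene6334 (−1.54, adjusted p = 0.00934). The same held for patched-1 gene21826 (−1.45, adjusted p = 0.0123), Wnt-5a gene4411 (−2.82, adjusted p = 0.014), jagged-1 gene11790 (−1.19, adjusted p = 0.0171), and the BMP1-named gene15194 (−1.0, adjusted p = 0.0212), gene9375 (−3.65, adjusted p = 0.0258) and gene10509 (−3.26, adjusted p = 0.0432). FGF1 gene14539 (−7.71, adjusted p = 0.00873), FGF receptor-like 1 gene28011 (−6.16, adjusted p = 0.0265), Notch3-named gene19573 (−7.59, adjusted p = 0.0361) and Notch1-named gene20399 (−9.30, adjusted p = 0.0478) had a group or libraries without counts, so these fitted values depend on the prior count and are no bounds. The calls of gene10509, gene19123, gene19573, gene20215, gene20399, gene9375, gene24332 and gene28011 were each lost in 5 or more alternatives and that of gene15194 in 4. Those of gene13685 (DESeq2, compared groups alone) and gene3481 (without deep adult replicate 3, compared groups alone) were lost in 2, and those of gene11790, gene4411 and gene6334 with the compared groups alone.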

How the results depend on the processing

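Among the 159 named calls, no log2 difference changed sign under an alternative. The balance of higher and lower calls in adults did turn. With DESeq2 the counts of called genes were 30 in adults (20 higher, 10 lower), 19 in 60-day juveniles (16 higher, 3 lower) and 3 for the 60-day minus 8-day translocation effect, where RLE factors gave 1. With the compared groups alone they were 2 in adults, 1 at 60 days and 11 for adults minus planulae. The share of higher calls was 76.3% with DESeq2 in planulae against 86.4%, 66.7% against 46.7% in adults, and 84.2% (80.0% with RLE factors) against 60.0% at 60 days. Leaving out 1 library gave 36 to 65 calls in planulae, 8 to 24 in adults, 0 to 0 at 8 days, 2 to 7 at 60 days, 85 to 98 at settlement, 28 to 37 and 16 to 26 for control and translocated growth, 59 to 73 for maturation, 19 to 42 for adults minus planulae and 0 to 1 for 60 minus 8 days. A replicate block gave 64, 15, 0, 7, 102, 42, 29, 83, 29 and 0 calls in the same order of comparisons; the numbers did not pair the libraries. Of 159 named calls 62 were lost in at least 1 alternative, 45 of them with the compared groups alone. Low counts limit genes under 1 CPM.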
